A study of Mus musculus with 4 samples.

Results

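Interferon-responding macrophages at 4 days post-injury (dpi4) were 668 cells, of which 354 lay in the control library and 314 in the library labelled KO (KO-labelled below). They came from 9721 barcodes in the dpi4 libraries and 20500 in all libraries. The cells were chosen by measured values: at least 500 detected genes, under 10% mitochondrial UMIs (unique RNA molecules), at least 5 UMIs per 10000 of C1qa, C1qb and C1qc together, and at least 3 UMIs per 10000 of Iigp1, Ifit2 and Ifit3 together. Barcodes with a UMI of the dendritic cell gene Cd209a, with 5 or more UMIs per 10000 of Gpnmb, or with UMIs of both Mki67 and Top2a were left out. The barcodes that met every limit except that on Iigp1, Ifit2 and Ifit3 are called other macrophages, 1061 in the control and 923 in the KO-labelled library.

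The cells were CD45-positive leukocytes, sorted with magnetic beads out of the digested tibialis anterior, a leg muscle, of male mice 8 to 12 weeks old that had been injured with the muscle toxin cardiotoxin. Control mice were Bach1 fl/fl littermates, and KO mice were Bach1 fl/fl with Cre recombinase under the Lyz2 promoter, which is active in macrophages, monocytes and neutrophils alike. Bach1 encodes a heme-binding repressor of transcription. Each of the 4 groups (control and KO, at dpi2 and dpi4) was 1 library, which the series title marks as an individual mouse, so no spread between animals was measured.

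Interferons are cytokines, and cells release the type I interferons on sensing viral or displaced cellular nucleic acids. Type I interferons signal through IFNAR1 and IFNAR2 to a complex that holds STAT2 and IRF9 and binds the interferon-stimulated response element (ISRE). Interferon gamma, made mainly by T and NK cells, signals through IFNGR1 and IFNGR2, and its targets are bound at gamma-activated sites (GAS), and many GTPases and MHC genes answer to both.

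Of the 5 marker genes of the class, Ifit2 and Ifit3 encode proteins that bind foreign RNA, Iigp1 an immunity-related GTPase, Gbp2 a guanylate-binding GTPase and Cmpk2 a mitochondrial nucleotide kinase. Their start sites are shown where an entry was found. Iigp1, Ifit2 and Ifit3 define the class, and Cmpk2 and Gbp2 were not used to select the cells. The sequences are the 250 bases upstream of RefSeq start sites (GRCm38.p6, plus strand), and capitals mark an ISRE core (GAAA, any 2 bases, GAAA, or on the other strand TTTC, any 2 bases, TTTC) or a GAS (TTCNNNGAA, which reads the same on both strands). The motifs may share bases, and the search covered 300 bases, including the first 50 transcribed bases.
Ifit2, chr19:34550444-34550693: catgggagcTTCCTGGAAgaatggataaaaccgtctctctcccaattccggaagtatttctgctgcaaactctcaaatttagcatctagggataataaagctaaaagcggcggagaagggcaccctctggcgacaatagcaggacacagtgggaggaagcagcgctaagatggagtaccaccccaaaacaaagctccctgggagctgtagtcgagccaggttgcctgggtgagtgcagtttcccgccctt
Ifit3, chr19:34583279-34583528: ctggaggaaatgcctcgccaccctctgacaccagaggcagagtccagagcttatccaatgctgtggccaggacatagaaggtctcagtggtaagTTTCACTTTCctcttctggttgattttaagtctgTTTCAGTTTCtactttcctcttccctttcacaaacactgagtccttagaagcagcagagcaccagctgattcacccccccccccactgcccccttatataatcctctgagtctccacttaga
Cmpk2, chr12:26468965-26469214: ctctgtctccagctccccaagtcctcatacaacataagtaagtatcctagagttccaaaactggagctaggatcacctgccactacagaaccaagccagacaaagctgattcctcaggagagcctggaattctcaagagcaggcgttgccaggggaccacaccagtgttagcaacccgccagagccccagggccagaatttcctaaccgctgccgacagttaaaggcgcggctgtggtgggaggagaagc
Gbp2, chr3:142620413-142620662: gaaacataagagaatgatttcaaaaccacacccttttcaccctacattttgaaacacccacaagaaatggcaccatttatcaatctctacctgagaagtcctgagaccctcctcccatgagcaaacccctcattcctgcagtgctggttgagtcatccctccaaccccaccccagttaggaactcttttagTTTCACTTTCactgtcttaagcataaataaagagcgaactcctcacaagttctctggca
Ifit3 held an ISRE core at 156 and at 122 bases before the start, and Gbp2 held one 59 bases before it. Ifit2 held a GAS 241 bases before its first start site and neither motif at its second, and the Cmpk2 window held neither. No entry matched Iigp1. A match is a run of letters, not a shown site of binding. An ISRE core was found in 3.99% of the 27025 genes with a promoter entry and a GAS in 9.55%.

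The deposited counts gave the class 4939709 UMIs in the control and 3742704 in the KO-labelled library. The median depth per cell was 13610 UMIs (range 1114 to 58875) in the control members and 11118 (900 to 64093) in the KO-labelled members, against 12615 and 10958 in other macrophages. Levels below are CPM, UMIs of a gene per 1000000 UMIs summed over a group of cells. Every interval is a 95% interval that covers counting error only, since 1 library stood for each group, and no test was run. From 2 to 14 barcodes were shared between any pair of libraries, and none was a member in both.

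Bach1 UMIs did not follow the labels. The members had 291 CPM of Bach1 in the control and 329 CPM in the KO-labelled library, a ratio of 1.13 (1.05 to 1.23). Counts per gene do not show whether the floxed exon was removed. Lyz2, the gene that drives the Cre, did follow them, with 14907 CPM in control members and 19.5 CPM in KO-labelled members.

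Before any comparison the class was set against its label. All 10 macrophage core genes were detected in members of both libraries, the C1q genes of the rule included, and among them were Adgre1 (F4/80), Csf1r (the M-CSF receptor) and Mertk (a receptor for dying cells). The macrophage genes summed to 43244 CPM in control members and 36457 CPM in KO-labelled members, against 40589 and 33806 CPM in other macrophages. Cmpk2 and Gbp2, the markers that did not select the cells, were both higher in the class, as given below. Both are interferon-induced, like the genes of the rule, so this describes the class and does not test its label. Dendritic cell genes summed to 12.4 and 52.4 CPM in members against 35.9 and 29.0 CPM in other macrophages, with Cd209a at 0 by the rule, T and NK cell genes to 91.5 and 74.6 CPM against 54.2 and 138 CPM, and B cell genes to 28.1 and 18.2 CPM against 23.99 and 25.6 CPM. Stromal and endothelial genes, such as the collagen Col1a1, summed to 608 CPM in control members and 1170 CPM in KO-labelled members, against 251.3 and 125.5 CPM in other macrophages. Those UMIs sat in few cells. Barcodes with at least 5 UMIs per 10000 of the stromal and endothelial, T and NK, or B cell genes, called mixed barcodes below, were 17 of the 354 control members and 17 of the 314 KO-labelled members.

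The threshold cut through a continuous range of values. The lowest members had 3.01 UMIs of Iigp1, Ifit2 and Ifit3 per 10000 in the control and 3.03 in the KO-labelled library, and the highest other macrophages had 2.985 and 2.998. The median member had 8.96 (control) and 7.997 (KO-labelled), and the highest 89.5 and 73.4. A single UMI of the 3 genes let in 11 members in each library. Among other macrophages, 709 of 1061 (66.8%) and 574 of 923 (62.2%) had no UMI of these genes.

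The genes of the rule describe how the cells were chosen. Ifit2 stood at 666 CPM in control members and 563 CPM in KO-labelled members, and at 18.7 and 23.4 CPM in other macrophages. Ifit3 stood at 596 and 424 CPM in members and at 24.9 and 25.8 CPM in other macrophages. Iigp1 stood at 162 and 297 CPM in members and at 5.099 and 12.96 CPM in other macrophages. Ifit2 and Ifit3 were therefore lower, and Iigp1 higher, in KO-labelled members than in control members.

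The share of macrophages in the class differed by less than the counting error between the dpi4 libraries. Of 1415 control macrophages 354 were members, 25.02% (22.8% to 27.4%), and of 1237 KO-labelled macrophages 314 were, 25.38% (22.98% to 27.9%). The difference of 0.366 percentage points had an interval from -2.99 to 3.74. When each cell was thinned to 5000 UMIs, with a member needing 2 UMIs of the 3 genes, the shares were 25.5% and 27.5%, and the difference was 2.05 points (-1.64 to 5.75). Thinning left out 190 control macrophages and 183 KO-labelled ones.

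At the earlier time point the shares were far apart. At dpi2 the same rule took 395 of 1281 control macrophages, 30.8% (28.3% to 33.5%), and 59 of 776 KO-labelled ones, 7.60% (5.84% to 9.70%), a difference of -23.2 points (-26.4 to -19.95). From dpi2 to dpi4 the share changed by -5.82 points (-9.26 to -2.38) in the control libraries and by 17.8 points (14.6 to 20.9) in the KO-labelled libraries. Each time point was a separate pair of libraries, and the marker sums of the members differed between them. Macrophage core genes summed to 9820 and 12351 CPM in dpi2 members (control, KO-labelled) and monocyte genes to 8244 and 5384 CPM, against 1363 and 1192 CPM of monocyte genes at dpi4.

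**Figure D1:**
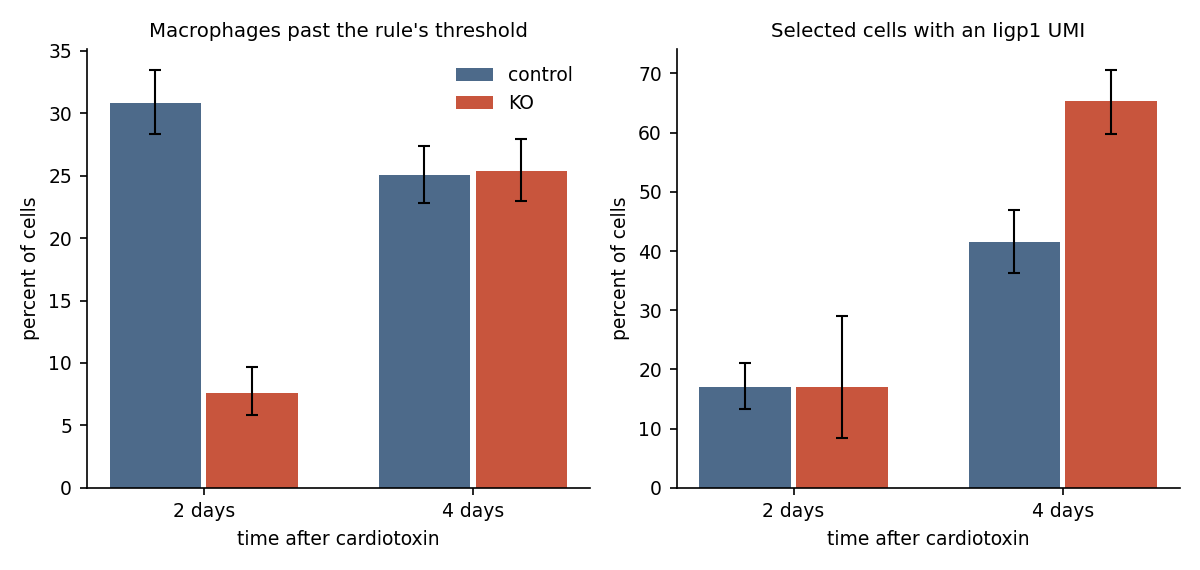
Left, the percent of macrophages past the threshold on Iigp1, Ifit2 and Ifit3, and right, the percent of those selected cells with an Iigp1 UMI, by days after cardiotoxin, with control bars in blue, KO-labelled bars in red and exact 95% intervals for counting error. On the left the dpi4 bars reach 25.02% and 25.38% and the dpi2 bars 30.8% and 7.60%, and on the right the dpi4 bars reach 41.5% and 65.3%.

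Interferon genes that the rule did not use separated the classes cell by cell, without a gap. The summed level of 51 interferon effector and GTPase genes had a median of 113 UMIs per 10000 (quartiles 79.3 and 166) in control members and 96.1 (66.2 and 139) in KO-labelled members. In other macrophages the medians were 29.4 and 33.1. Of other macrophages, 28 control cells and 29 KO-labelled cells lay above the median of the members, and 9 members in each library lay below the median of other macrophages.

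**Figure D2:**
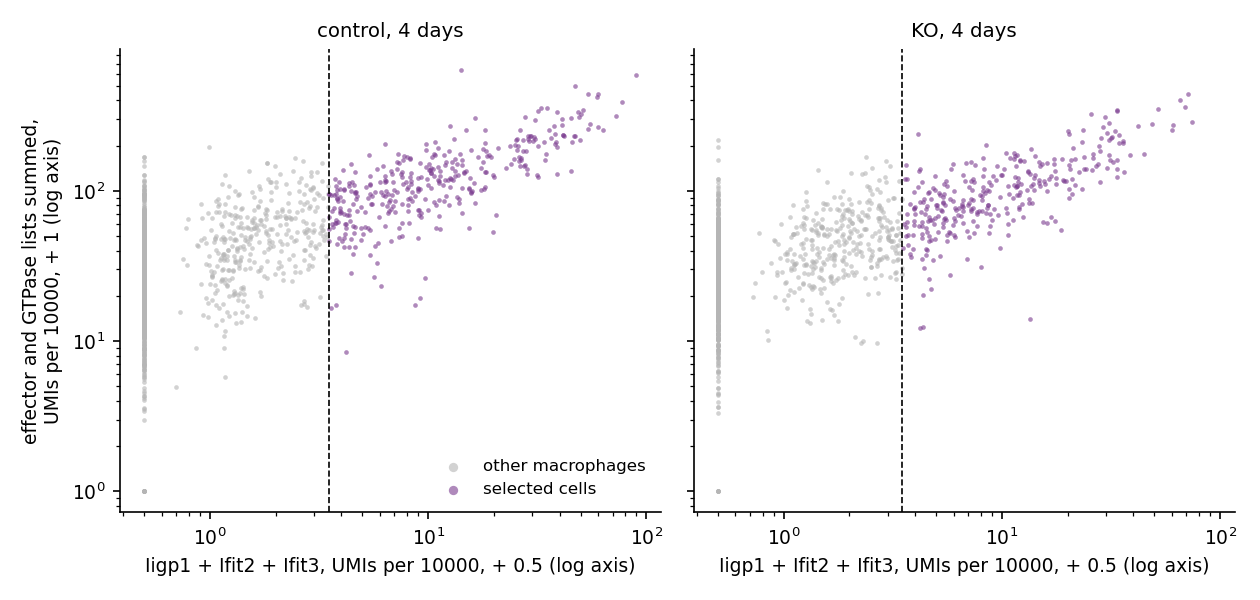
Each point is a macrophage at dpi4 (left control, right KO-labelled), with the level of Iigp1, Ifit2 and Ifit3 on the x axis and the summed level of 51 other interferon genes on the y axis, in UMIs per 10000 on log axes with the small constants printed on them. Selected cells, in purple, lie right of the dashed threshold, with y medians of 113 and 96.1 against 29.4 and 33.1 in other macrophages, in grey.

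Members were next compared with other macrophages within each library. Since the members were chosen on interferon genes, the comparison describes the class and tests nothing. A gene passed a rule of size where the ratio was at least 2-fold either way, its interval left out 1, and the pair of groups held at least 50 UMIs. In the control 291 of 10108 genes (2.88%) passed as higher in the class and 165 (1.63%) as lower. In the KO-labelled library the counts were 356 of 9753 (3.65%) and 105 (1.08%). In both libraries 198 of 9626 genes (2.06%) passed as higher and 20 (0.208%) as lower, and 30 passed in opposite directions. Of the 198, 59 belonged to the lists of interferon effectors, GTPases, sensors, and signalling and transcription factors. Of 6 tested stromal and endothelial genes, 3 were among the 198. Without the mixed barcodes 161 of the 198 and 14 of the 20 still passed.

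The antiviral effectors were higher almost without exception. Of 36 tested effectors 34 passed in both libraries, against the background of 2.06%, and all 36 had ratios above 1. Their median log2 ratio was 2.15 in the control and 1.73 in the KO-labelled library, where the median of all genes was -0.08 and -0.03. Rsad2 (viperin), which makes a chain terminator of viral RNA synthesis, had 856 CPM in control members and 35.0 CPM in other macrophages, and 683 and 55.2 CPM in the KO-labelled library. The ratios of Rsad2 were 24.5 (22.3 to 26.9) and 12.4 (11.3 to 13.6).

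Ifit1, which binds uncapped viral RNA, had 403 and 18.7 CPM in the control, a ratio of 21.6 (18.9 to 24.6), and 303 and 22.9 CPM in the KO-labelled library, a ratio of 13.2 (11.5 to 15.3). Its relatives Ifit1bl1 and Ifit3b were at 31.9 and 30.8 times their level in other macrophages in the control and at 17.7 and 12.1 times in the KO-labelled library. Ifit1bl1 and Ifit3b are close copies of Ifit1 and Ifit3, so reads could be split between them. Cmpk2, whose gene lies beside Rsad2 on chromosome 12, had 194 and 11.2 CPM in the control, a ratio of 17.4 (14.6 to 20.7), and 189 and 12.8 CPM in the KO-labelled library, a ratio of 14.8 (12.3 to 17.9). All of these were thus rare outside the class.

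Isg15, the ubiquitin-like protein of the response, had 539 and 57.7 CPM in the control and 449 and 71.3 CPM in the KO-labelled library, with ratios of 9.35 (8.64 to 10.1) and 6.30 (5.78 to 6.87). Usp18, the protease that removes ISG15 from proteins and dampens the type I receptor, had ratios of 7.77 and 6.33. Mx1, a GTPase against influenza virus, had ratios of 11.8 and 8.18, and Ifi205, a relative of the DNA-binding protein IFI204, had 21.4 and 10.9. The oligoadenylate synthetases Oas1a, Oas2 and Oas3, which activate RNase L on double-stranded RNA, had smaller ratios, from 2.25 to 7.57. The 2 effectors that did not pass in both libraries were Ifi27l2a, at 1.54 and 1.44, and Bst2 (tetherin), at 2.40 and 1.62. Both were also abundant outside the class, where Ifi27l2a stood at 1536 and 1109 CPM and Bst2 at 353 and 517 CPM.

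The interferon-induced GTPases, which attack the vacuoles of intracellular microbes, passed as a full set. All 13 tested GTPases were past the rule in both libraries, with a median log2 ratio of 2.26 in the control and 2.05 in the KO-labelled library. Gbp2 had 227 and 32.4 CPM in the control, a ratio of 7.01 (6.28 to 7.84), and 208 and 34.2 CPM in the KO-labelled library, a ratio of 6.103 (5.39 to 6.93). Gbp5, which promotes inflammasome assembly, had ratios of 7.06 (5.47 to 9.19) and 8.10 (5.93 to 11.2). Tgtp2, an immunity-related GTPase, had 8.32 (5.77 to 12.2) and 17.3 (9.97 to 32.2), from 40 and 15 UMIs in other macrophages. Tgtp1, a near-identical gene, had too few UMIs to be tested. Irgm1, a regulator of these GTPases, had 4.56 and 4.15.

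**Figure D3:**
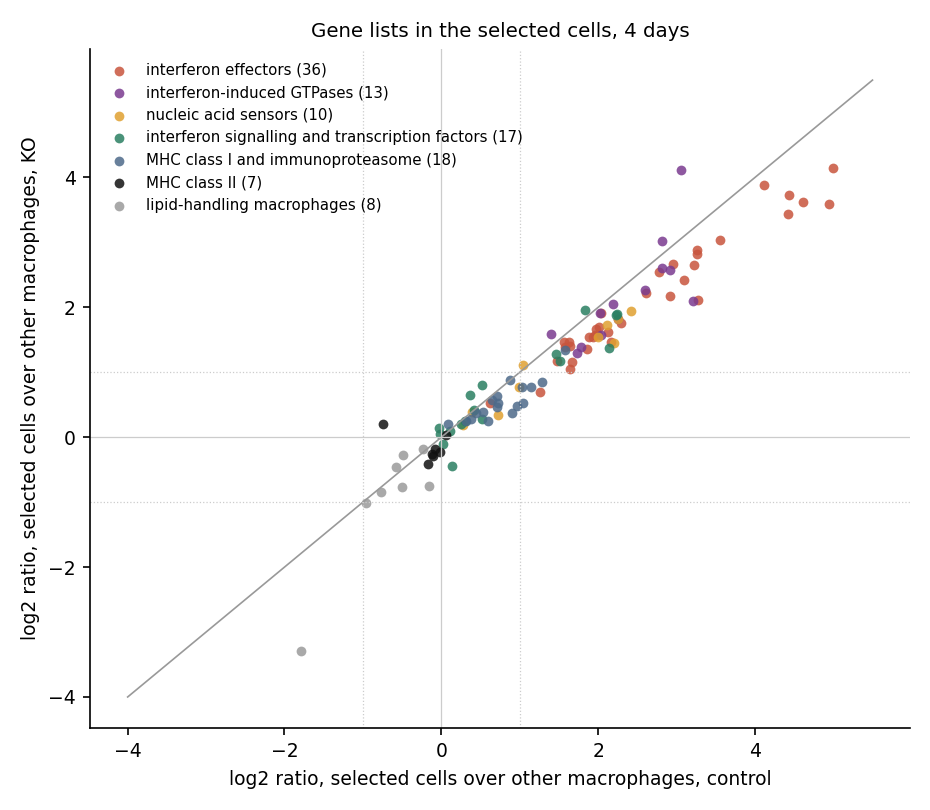
Each point is a gene of the named lists, with its log2 ratio of CPM, selected cells over other macrophages, in the control on the x axis and in the KO-labelled library on the y axis; the diagonal marks equal ratios and dotted lines 2-fold. Effectors (medians 2.15 and 1.73) and GTPases (2.26 and 2.05) lie far along both axes, and MHC class II genes lie near 0 in all but 1 case.

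Sensors of foreign RNA and DNA were split. The RNA helicases Ddx58 (RIG-I), Ifih1 (MDA5) and Dhx58 (LGP2), the Z-nucleic-acid sensor Zbp1, the RNA-editing enzyme Adar and the endosomal receptor Tlr3 passed in both libraries, 6 of 10 tested. Zbp1 had the ratios 5.38 and 3.83, and Ifih1 4.75 and 3.54. The cytosolic DNA sensor cGAS (Mb21d1) had 1.99 and 1.71, its partner STING (Tmem173) 1.22 and 1.15, and the endosomal RNA receptor Tlr7 1.31 and 1.31. All 10 lay above 1 in both libraries.

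Among 17 signalling and transcription genes, 6 passed in both libraries. Stat2, a subunit of the complex that binds the ISRE, had ratios of 4.67 and 3.69. Irf7, the factor that amplifies type I interferon, had 636 and 144 CPM in the control and 605 and 233 CPM in the KO-labelled library, with ratios of 4.41 (4.17 to 4.67) and 2.61 (2.46 to 2.76). Batf2, the MHC class I activator Nlrc5 and the feedback inhibitor Socs1 also passed. Irf9, the partner of STAT2 on the ISRE, had 1.34 and 1.33, and Irf1, a target of interferon gamma, 1.43 and 1.75, below the 2-fold limit. The kinases Jak1, Jak2 and Tyk2 stayed between 1.06 and 1.57.

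Interferons and their receptors did not mark the class. Ifnb1 had 3 UMIs in control members, all in 1 cell, and 0 in KO-labelled members. A count of 0 allows up to 3 UMIs, as a one-sided limit. Ifna1, Ifna2, Ifna4, Ifnl2 and Ifnl3 had 0 UMIs in all dpi4 macrophages. Ifng had 7 and 3 UMIs in members and 10 and 16 in other macrophages, and without the mixed barcodes 0 and 2 in members and 4 and 0 in other macrophages. The receptor genes were read at similar levels in and outside the class. Ifnar1 had 76.3 and 81.5 CPM in the control and 88.7 and 95.04 CPM in the KO-labelled library, and Ifngr1 239 and 289 CPM, and 279 and 323 CPM. None of the 4 tested receptor genes passed.

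Of 10 chemokines 4 passed in both libraries. Cxcl10, an attractant of T cells through CXCR3, had 960 and 69.5 CPM in the control and 673 and 87.7 CPM in the KO-labelled library, with ratios of 13.8 (12.9 to 14.8) and 7.67 (7.11 to 8.27). The chemokine Ccl8 had 871 and 312 CPM, and 610 and 204 CPM, with ratios of 2.797 (2.68 to 2.92) and 2.996 (2.83 to 3.18). Ccl12, a monocyte attractant, had ratios of 4.68 and 5.28. These 3 chemokines were each read in 136 to 174 members per library.

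Cxcl9, another CXCR3 ligand and a target of interferon gamma, rested on few cells. Only 29 control members and 30 KO-labelled members held a Cxcl9 UMI, and 1 cell held 37.6% and 37.5% of them. Without the mixed barcodes its ratios to other macrophages were 8.54 and 6.95, in place of 32.0 and 7.03, and with the threshold on Ifit2 and Ifit3 alone the log2 ratio in the control was -0.13. Ccl2, Ccl3, Ccl4 and Cxcl16 did not pass in either library, and Ccl7 passed in the KO-labelled library alone, at 2.64. Ccl5, which T and NK cells also make, passed as higher in the control, at 6.06, and had 0.552 in the KO-labelled library.

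Among cytokines and surface ligands, Il15, which sustains NK and memory T cells, had ratios of 2.67 and 2.86. The death ligand Tnfsf10 (TRAIL) had 37.9 and 2.08 CPM in the control, a ratio of 18.2 (12.3 to 27.9), and 27.5 and 3.61 CPM in the KO-labelled library, a ratio of 7.63 (5.23 to 11.3), which was 14.2 (8.36 to 25.6) without the mixed barcodes. Cd274 (PD-L1) had 2.57 and 2.14, and the costimulatory receptor Cd40 2.07 and 2.28. The inflammatory cytokine Il1b lay below 1, at 0.624 and 0.590. Of 16 tested genes, Il15, Tnfsf10, Cd274 and Cd40 were the 4 that passed in both libraries.

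Of the 18 genes of antigen presentation by MHC class I, Tap1 alone passed the rule in both libraries, where 2.06% of all tested genes passed. All 18 had ratios above 1 in both, with median log2 ratios of 0.72 and 0.50 beside -0.08 and -0.03 for all genes. Tap1, a subunit of the peptide transporter, had 166 and 55.6 CPM in the control and 200 and 79.0 CPM in the KO-labelled library, with ratios of 2.98 (2.70 to 3.29) and 2.54 (2.30 to 2.80). The heavy chain H2-K1 had ratios of 1.37 and 1.30. Class II medians lay below 0. H2-Aa had 2411 and 2614 CPM in the control and 1637 and 1961 CPM in the KO-labelled library, and the medians of 7 class II genes were -0.10 and -0.23.

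Beyond the interferon lists, the genes with the highest ratios included the serine protease inhibitors Serpina3f, at 20.1 and 13.5, and Serpina3g, at 15.4 and 12.3. Without the mixed barcodes Serpina3f had 15.3 in the KO-labelled library, from 41 and 8 UMIs, too few to be tested. Fcgr1, the high-affinity receptor for IgG, was the macrophage core gene that passed among 7 tested, with 601 and 224 CPM in the control and 451 and 202 CPM in the KO-labelled library. The ratios of Fcgr1 were 2.68 (2.55 to 2.82) and 2.23 (2.09 to 2.38). Of the monocyte genes, Plac8 passed at 2.96 and 2.58 and the matrix proteoglycan gene Vcan at 2.29 and 2.49. In the KO-labelled members 1 cell held 40.6% of the Vcan UMIs, and without mixed barcodes its ratios were 3.21 in the control and 0.900 (0.509 to 1.52) in the KO-labelled library. Ly6c2, the mark of inflammatory monocytes, passed in the control at 3.35 and stood at 1.14 in the KO-labelled library, while Ccr2 stood at 0.869 and 0.815. The 7 monocyte genes did not move together. Their sums were 1363 and 1192 CPM in members and 1266 and 1234 CPM in other macrophages.

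Few genes were lower in the class in both libraries. Slc7a11, the cystine importer that feeds glutathione synthesis, had 24.5 and 67.7 CPM in the control and 29.1 and 107 CPM in the KO-labelled library, with ratios of 0.362 (0.297 to 0.437) and 0.271 (0.221 to 0.330). The coagulation factor F10 had 0.317 and 0.383, the glycosyltransferase B3gnt7 0.185 and 0.373, the growth factor Igf2 0.417 and 0.345, and the EGF receptor ligand Areg 0.369 and 0.308. Mmp12 (macrophage elastase) had 0.289 and 0.102, and all 9 lipid-handling genes, Spp1, Fabp5 and Cd9 among them, lay below 1 in both libraries, although Gpnmb, 1 of the 9, was limited by the rule. In the KO-labelled members 1 cell held 59.5% of the Mmp12 UMIs. For others of the lowest genes, a single cell outside the class held much of the RNA. In the KO-labelled library 1 cell held 79.6% of the Rgs5 UMIs of other macrophages. In the control 1 cell held 55.1% of the Retnla UMIs there. Without the mixed barcodes the log2 ratio was 1.13 for Rgs5 in the KO-labelled library and 0.60 for Igf2 in the control, the Igf2 ratio in the KO-labelled library was 0.884, and with the threshold at 2 per 10000 it was 0.80 for Areg in the control, so these 3 directions depended on those choices. S100a8, a neutrophil gene, had 0.238 and 0.219, with 30.8% and 87.2% of the UMIs in members in 1 cell, and neutrophil genes summed to 170 and 104 CPM in members against 455 and 174 CPM in other macrophages. The part of neutrophil RNA in these values was not tested.

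Genes higher in the class carried ISRE cores near their starts more often than genes at large, as a description. Of the 137 genes higher in both libraries that matched a promoter entry, 40 (29.2%) held an ISRE core and 22 (16.1%) a GAS, against 3.99% and 9.55% of all genes. That background is all 27025 genes with a promoter entry, read in these cells or not, and the cells were selected on interferon genes. An ISRE core was found at 17 of 30 matched effectors (56.7%) and 9 of 10 matched GTPases, and a GAS at 5 and 6 of them. Among MHC class I genes 5 of 16 held an ISRE core, and among class II genes 0 of 5. Of the 18 matched genes that were lower in the class, 2 held one.

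The next comparison was between the KO-labelled and control libraries within the class. Of 8728 genes 271 (3.1%) passed as higher in KO-labelled members and 75 (0.859%) as lower. TMM scaling, which shifted every log2 ratio by -0.124, gave 208 and 107. In other macrophages 165 of 10539 passed as higher and 185 as lower, and 64 and 33 genes passed in the same direction in both. Many of the 271 came from few cells. Only 179 were read in at least 10 KO-labelled members with no cell holding over 25% of the UMIs. The largest ratios belonged to Gpihbp1, Myct1, Emcn, Esam, Cldn5 and Adgrf5, genes of endothelial cells, Mgll, and the neuroendocrine gene Chga, with 55 to 128 UMIs in 1 to 6 KO-labelled members and 0 or 1 UMI in control members. Without the mixed barcodes, these 8 genes had 0 to 2 UMIs in KO-labelled members.

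Genes of heme breakdown, iron export and redox defence were higher in KO-labelled members. All 14 tested genes of this list had ratios above 1, with a median log2 ratio of 1.09 where that of all genes was 0.11, and 7 passed the rule. Hmox1 (heme oxygenase) had 315 CPM in control members and 5031 CPM in KO-labelled members, a ratio of 16.0 (15.2 to 16.8), and 453 and 5218 CPM in other macrophages, a ratio of 11.5 (11.2 to 11.8). The iron exporter Slc40a1 had 49.6 and 645 CPM in members. Its ratio was 13 (11.4 to 14.9), beside 13.2 (10.6 to 16.5) for Spic, the transcription factor of iron-recycling macrophages. Gclm and Gclc, the subunits of the first enzyme of glutathione synthesis, had 5.03 and 3.31, and the ferritin gene Fth1 had 2.29. The heme transporter Slc48a1 had 6.18 and the adhesion molecule Vcam1 7.12. In other macrophages Slc40a1 had 10.8, Spic 15.8, Slc48a1 5.14 and Vcam1 5.52, so the difference between the labels was read outside the class too.

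Lyz1, the neighbour and near copy of Lyz2, had 21.7 and 708 CPM in members, a ratio of 32.7 (26.9 to 40.0) whose size is uncertain, since reads can fit either gene. Among the lowest genes after Lyz2 were the peptide transporter Slc15a2 at 0.127 (0.066 to 0.225), the glutathione transferase Gstp1 at 0.147 (0.052 to 0.341), the secreted protein C1qtnf1 at 0.197, and the fibroblast genes Igfbp5, Capn6, Thbs4 and Apod at 0.0816 to 0.153. Apod and Thbs4 lay in 17 and 3 control members, with 42.7% and 47.1% of their UMIs in 1 cell. Without the mixed barcodes Thbs4 had 0 UMIs in control members and 3 in KO-labelled members, so that its low ratio rested on those barcodes. Apod then had 0.821 and Igfbp5 0.103, and C1qtnf1 had 0.096 (0.019 to 0.3004) from 42 and 3 UMIs, too few to be tested.

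Most interferon effectors lay slightly lower in KO-labelled members. None of 36 effectors passed the rule, and 30 of 36 had ratios below 1, with a median log2 ratio of -0.31. In other macrophages 25 of 36 lay above 1, with a median of 0.20. Over all macrophages together, with no threshold, 25 of 36 lay below 1 and the median was -0.17. The 30 genes below 1 in members included Oas1a at 0.532 (0.438 to 0.644), Isg20, an RNA exonuclease, at 0.539 (0.446 to 0.650), Mx1 at 0.678, Ifit1 at 0.752 and Isg15 at 0.833. Ifi44 lay above 1, at 1.72 (1.53 to 1.94), with 96.4 CPM in control members and 166 CPM in KO-labelled members.

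Iigp1 went the other way from its companions in the rule. Over all macrophages, which no threshold on these genes had chosen, Iigp1 had 46.2 CPM in the control and 85.9 CPM in the KO-labelled library, a ratio of 1.86 (1.71 to 2.03). Ifit2 had 188 and 162 CPM, a ratio of 0.862 (0.818 to 0.909), and Ifit3 had 174 and 128 CPM, a ratio of 0.736 (0.695 to 0.779). Some GTPases resembled Iigp1. Gbp8 passed as higher in KO-labelled members, at 2.20 (1.58 to 3.08) from 12.2 and 26.7 CPM, and Gbp4 had 1.63 (1.20 to 2.20). Gbp2 at 0.918 and Gbp5 at 0.973 did not, and the median of 13 GTPases was 0.05, which TMM scaling, the threshold at 2 per 10000 and other choices turned below 0.

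Most chemokines and MHC class II genes lay lower in KO-labelled members. The median log2 ratio of 10 chemokines was -0.51 and 8 lay below 1, with Cxcl10 at 0.701 (0.668 to 0.736), Ccl8 at 0.700 (0.665 to 0.737) and Ccl12 at 0.682 (0.620 to 0.751). Ccl5 alone passed the rule, as lower, at a log2 ratio of -1.31, but outside the class its log2 ratio was 2.14. Outside the class Cxcl10 had 1.26, while Ccl8 and Ccl12 had 0.653 and 0.605. Cxcl9 had 0.696 with all members and 2.78 (2.30 to 3.36) without the mixed barcodes, so that its direction rests on those cells. Without them 6 of the 10 chemokines lay below 1, with a median of -0.27, and Ccl7, Cxcl16 and Ccl2 also lay above 1, at 1.41, 1.09 and 1.01. Ccl5 then had 0.425 (0.353 to 0.509) and still passed as lower. H2-Aa had 0.679 (0.658 to 0.700) and Cd74, the invariant chain, 0.628 (0.612 to 0.644), and 6 of 7 class II genes lay below 1. Ciita, the master activator of class II genes, passed as lower at 0.475 (0.347 to 0.643), from 33.2 and 15.8 CPM. Among class I genes, B2m at 1.34 (1.31 to 1.36) and H2-K1 at 1.39 (1.35 to 1.43) lay above 1. The class I list was mixed, with 11 of 18 genes above 1, 7 below and none past the rule. Its median log2 ratio was 0.20, where that of all genes was 0.11. In other macrophages H2-Aa at 0.750, Cd74 at 0.679, B2m at 1.43 and H2-K1 at 1.46 had the same directions. There all 18 class I genes lay above 1.

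**Figure D4:**
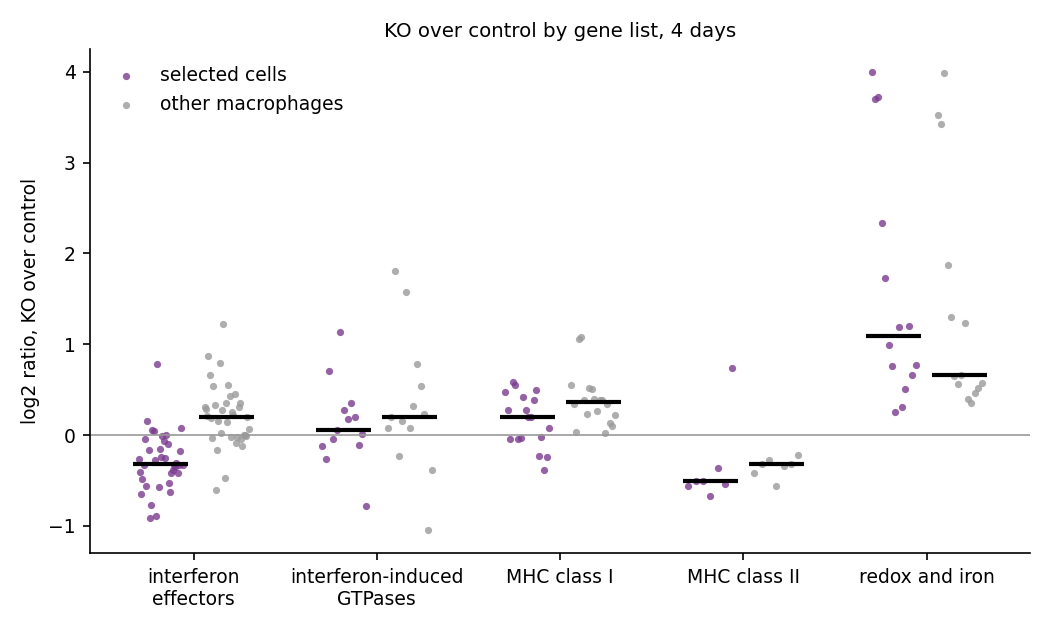
Log2 ratio of CPM, KO-labelled over control, at dpi4 for each gene of 5 lists, in selected cells (purple) and other macrophages (grey), with a bar at the median of each list. Redox and iron genes lie above 0 in both (medians 1.09 and 0.66), and the effector median is -0.31 in selected cells and 0.20 in other macrophages.

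Of the genes of the rule, Iigp1 was read in the fewest members. Ifit2 was read in 332 control members and 283 KO-labelled members and Ifit3 in 325 and 261, but Iigp1 only in 147 and 205. Of control members 41.5% (36.3% to 46.9%) held an Iigp1 UMI, and of KO-labelled members 65.3% (59.7% to 70.6%), a difference of 23.8 points (16.1 to 31.2). Thinned to 5000 UMIs per cell, the shares were 32.4% and 47.6%, and the difference was 15.2 points (7.17 to 23.1). Without the mixed barcodes the shares were 41.2% and 65.0%. As a background, filtered barcodes under the C1q limit held an Iigp1 UMI in 57 of 665 (8.57%) and 72 of 687 (10.5%), at median depths of 10723 and 9985 UMIs. Other macrophages held one in 4.62% and 10.3%. Since Iigp1 is a gene of the rule, the rule itself raised its share in members and lowered it in other macrophages. At dpi2 the shares in members were 17.0% in each library, of 395 and 59 cells.

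Members with and without an Iigp1 UMI were compared within each library, with mixed barcodes left out: 139 and 198 control members, and 193 and 104 KO-labelled members. A deeper cell shows an Iigp1 UMI more readily. With no barcode left out the median depths were 14160 and 13265 UMIs in the control and 11250 and 10539 UMIs in the KO-labelled library. Since Iigp1 belongs to the rule, and the split is by a measured value, the values are a description. All 13 GTPases had ratios above 1, with over without Iigp1, in both libraries, with median log2 ratios of 0.86 and 1.09, against 0.04 and 0.06 for all genes. In the control only Gbp2, Gbp5 and Irgm2 passed the size rule. The control intervals of Gbp8, at 1.06 (0.608 to 1.85), and Gbp9, at 1.27 (0.923 to 1.75), included 1. Gbp2 had 347 CPM with and 132 CPM without Iigp1 in the control, and 257 and 110 CPM in the KO-labelled library. Effectors had smaller medians, 0.50 and 0.53, with Isg15 at 1.63 and 1.46.

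The monocyte-attracting chemokines followed Iigp1. Ccl8 had 1634 CPM with and 242 CPM without Iigp1 in control members, a ratio of 6.77 (6.21 to 7.39), and 869 and 213 CPM in KO-labelled members, a ratio of 4.08 (3.56 to 4.68). Ccl7 had ratios of 4.06 and 2.66, Ccl12 3.49 and 1.88, and Ccl2 2.48 and 1.51. Of all 10 chemokines 8 lay above 1 in the control and 7 in the KO-labelled library. Cxcl16 lay below 1 in both, at 0.819 and 0.898, Ccl5 in the control, at 0.935, and Ccl3 and Ccl4 in the KO-labelled library, at 0.795 and 0.949. Of the genes of tissue-resident macrophages, all 5 with enough UMIs had ratios above 1 in both libraries. They were the carbonyl reductase Cbr2, at 3.88 and 2.04, the coagulation factor F13a1, at 2.24 and 1.70, the folate receptor Folr2, at 1.80 and 2.18, the mannose receptor Mrc1, at 1.69 and 2.01, and the hemoglobin scavenger receptor Cd163. F13a1 in the KO-labelled library, and Folr2 and Mrc1 in the control, lay below the 2-fold limit.

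MHC class II ran the opposite way. H2-Aa had 1659 CPM with and 3090 CPM without Iigp1 in control members, and 1378 and 2270 CPM in KO-labelled members, ratios of 0.537 and 0.607. H2-Ab1, H2-Eb1 and Cd74 had ratios from 0.465 to 0.663. None of 6 class II genes lay above 1 in either library, and their medians were -0.93 and -0.65. The neutrophil genes S100a8 and S100a9 lay below 1 as well, at 0.384 and 0.032 and at 0.425 and 0.0061, but a few cells held them. Among all members 1 cell held 56.9% of the S100a9 UMIs in the control and 97.4% in the KO-labelled library, and Csf3r, a receptor gene of neutrophils, had 0.934 and 0.928. The part of neutrophil RNA in the split was not tested. Members with Iigp1 therefore held more Ccl8, Cbr2 and GTPase RNA and less class II RNA in both libraries.

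**Figure D5:**
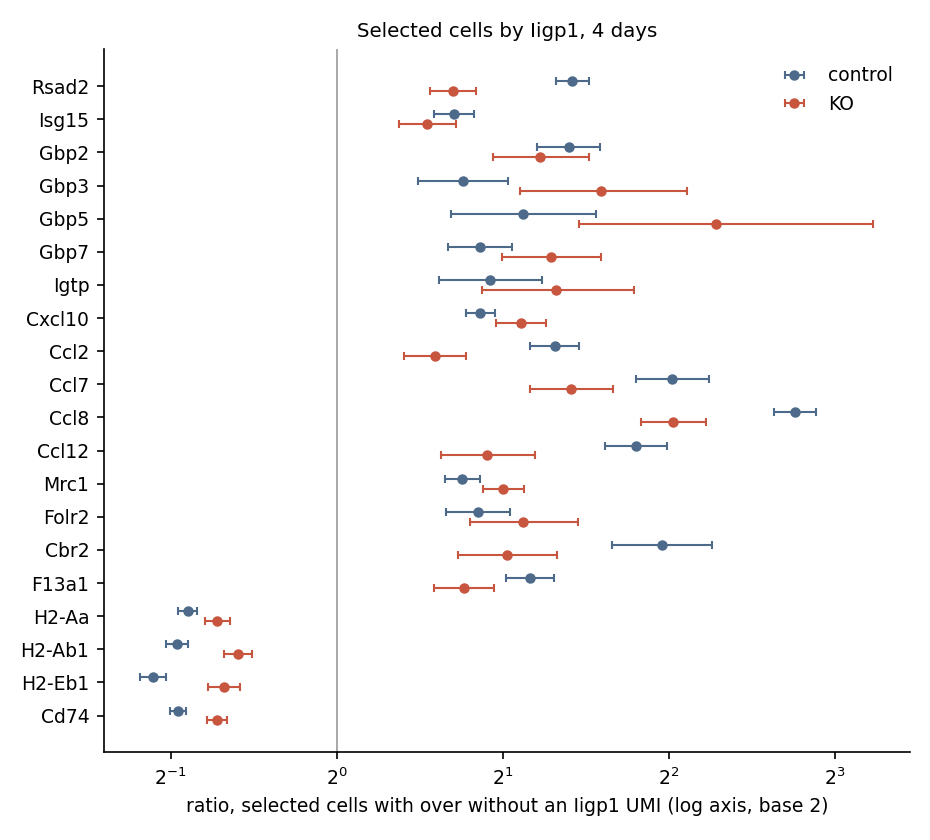
Ratio of CPM in selected cells with an Iigp1 UMI over those without, mixed barcodes left out, on a log axis, in the control (blue) and KO-labelled (red) dpi4 library, with 95% intervals for counting error. The interferon genes, chemokines and resident macrophage genes drawn lie above 1, with Ccl8 at 6.77 and 4.08, and the 4 class II genes lie below 1.

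The same rule at dpi2 gave cells with another balance of genes, with 395 control cells and 59 KO-labelled cells behind it. Rsad2 had 1526 CPM in members of the control and 1605 CPM in KO-labelled members at dpi2, where dpi4 had 856 and 683 CPM. Isg15 had 1316 and 1191 CPM at dpi2, and Cxcl10 1511 and 1312 CPM. Iigp1 stood lower at dpi2, at 45.1 and 19.4 CPM, and Gbp2 at 118 and 108 CPM. Ly6c2 had 1576 and 670 CPM in dpi2 members and 132 and 137 CPM in dpi4 members, and H2-Aa had 408 and 631 CPM at dpi2. Rsad2, Isg15, Cxcl10 and Ly6c2 were thus higher and Iigp1, Gbp2 and H2-Aa lower in dpi2 than in dpi4 members, under both labels. Day and library cannot be told apart in these values.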

How the data were processed

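The deposited files held raw UMI counts per gene and barcode, made by the authors from 10x Genomics 3′ libraries with Cell Ranger 6.1.2 and the mm10 genome, without normalization. The labels name the v2 kit and the study's methods the v3.1 kit. The counts per barcode began at 500 or 501 UMIs and covered 27998 genes. Library totals were 79250213 and 57010520 UMIs (control and KO-labelled, dpi2) and 80228489 and 62566722 (dpi4).

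Each library was 1 group, as its title labels it. Barcodes were filtered and the class was selected by the limits given in the text. Doublets were not removed: Scrublet (scanpy 1.11.5) marked 6 of the 354 control members and 1 of the 314 KO-labelled members. Within each group UMIs were added up and scaled to CPM. Intervals were exact Poisson for a CPM, and those of a ratio were exact conditional binomial, of a share Clopper-Pearson, and of a difference of shares Newcombe, all at 95% (Python 3.11.15, scipy 1.17.1). List medians are over genes with at least 20 UMIs in the pair. The ratio script was tested on simulated counts.

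The members, the 26 gene lists and the rules were chosen with earlier results of these data known. Genes named are those of the lists, and by rule the 10 highest and 10 lowest genes of the class past the size rule in both libraries (ranked by the smaller log2 ratio) and the 8 highest and 8 lowest between the labels in the class. After the data were seen, a ranking of genes spread over cells (10 cells, no cell over 25%) was added, which named Slc48a1 and Vcam1, as were the mixed barcodes, the split by Iigp1 and the lifting of the Gpnmb limit. Some genes that met these rules are not reported here. Mx2, Gbp6, Cxcl11 and Ighm were not matched in the files. Promoters are RefSeq entries of GRCm38.p6. Alternatives covered the threshold, filters, scaling (edgeR 4.0.16 TMM in R 4.3.3, on the counts), the rule of size and the comparison group.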

Additional observations from a re-analysis of the deposited data

Results flagged for a closer look

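The difference between the KO-labelled and control libraries in the class's share of macrophages was -23.2 percentage points at dpi2 and 0.366 points at dpi4, and the interval at dpi2 lay apart from that at dpi4. In members, the median log2 ratio of KO-labelled over control for MHC class II genes was 0.42 at dpi2 and -0.51 at dpi4, in opposite directions. For the macrophage core genes the medians were 0.11 and -0.08. With 1 library per group these differences between time points were not tested, and the dpi2 KO-labelled values rest on 59 cells.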

How the results depend on the processing

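No paired analysis was possible because each group was 1 library and the labels give no replicate numbers. Of the recomputed summary values, 222 stayed within the limits set for them and 51 moved. The signs of 2 small values changed. The difference between the dpi4 shares was -0.458 points at 5 per 10000, -2.88 with Ifit2 and Ifit3 alone and -2.992 under 5% mitochondrial UMIs, and the GTPase median between the labels was -0.043 at 2 per 10000, -0.012 without mitochondrial and ribosomal genes, -0.072 with TMM and -0.033 with per-cell means. With the threshold at 2 per 10000 the dpi4 shares were 30.11% and 32.58% (control, KO-labelled), those at dpi2 37.63% and 9.794% (difference -27.83), 9 genes were lower in both libraries, and the MHC class II medians were -0.087 (class over others, KO-labelled) and -0.389 (KO-labelled over control). At 5 per 10000 these were 18.73% and 18.27%, 22.4% and 5.026% (-17.38), 33 genes, -0.186 (control) and -0.437. With Ifit2 and Ifit3 alone the KO-labelled share was 20.94%, 31 genes were lower, and class II had -0.088 and -0.413. Under 5% mitochondrial UMIs gave 28.83% in the control, 11 lower genes, and -0.313 (control) and -0.261 for class II. Between the labels, 473 genes were higher and 178 lower at 20 UMIs, 89 and 19 at 200 UMIs (8 lower in the class in both libraries), and 886 and 284 at 1.5-fold (345 and 74 in both libraries). The class II median between the labels was -0.575 without mitochondrial and ribosomal genes, -0.634 with TMM and -0.597 with per-cell means, and in the control class -0.047 and -0.029 for the last pair. Against macrophages without a UMI of the 3 genes, effectors had 2.736 and 2.145, GTPases 2.663 and 2.342, and class II -0.033. Of the alternatives added after seeing the data, leaving out mixed barcodes gave 165 genes higher between the labels, asking for spread over cells 179 (13 lower in the class), and lifting the Gpnmb limit shares of 19.06% and 19.39%, with 25.64% at dpi2 (-18.74).

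Some single genes changed direction. In log2, class over others, at 2 per 10000 the control gave Adgrf5 1.684, Areg 0.798, Mgll 2.173 and Rgs5 0.915, and the KO-labelled library Igf2 2.055. With Ifit2 and Ifit3 alone the control gave Col1a1 -0.522, Cxcl9 -0.131 and Thbs4 -0.372, the KO-labelled library Apod -0.514, Col1a1 -4.807 and Vcan -0.951, and the labels differed by -3.799 for Col1a1. Under 5% mitochondrial UMIs the control gave Adgrf5 0.111, Igfbp5 2.281 and Rgs5 0.218, and Retnla between the labels 0.569. Per-cell means gave Col1a1 -0.176, and macrophages without a UMI of the 3 genes Retnla 1.301, both in the control. Without mixed barcodes the control gave Igf2 0.603 and Igfbp5 1.947, the KO-labelled library Gpihbp1 -0.423, Mgll -1.008, Rgs5 1.130 and Vcan -0.152, and Col1a1 between the labels -0.417. The causes were not tested. Counts limit precision, but with 1 library per group the spread between animals is unknown.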

Other observations

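Genes of handling stress, read in cells dissociated with enzymes, did not pass the size rule between members and other macrophages in either library. The 8 genes of this list (Fos, Jun, Junb, Egr1, Dusp1, Atf3, Hspa1a, Hspa1b) summed to 9595 CPM in control members and 9255 CPM in other control macrophages, and to 10292 and 9088 CPM in the KO-labelled library. In that library all 8 lay above 1, with Hspa1b at 1.81 (1.58 to 2.06), Hspa1a at 1.48 (1.33 to 1.65) and Egr1 at 1.36 (1.32 to 1.40), and in the control 6 did, with Hspa1b at 1.14, Hspa1a at 1.23 and Egr1 at 1.06. Hspa1b, a heat shock protein, was the one gene of the list past the size rule between the labels in members, with 23.9 and 99.9 CPM and a ratio of 4.18 (3.39 to 5.19).

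Muscle genes such as Acta1 summed to 112 CPM in control members and 44.4 CPM in KO-labelled members, and to 128 and 46.8 CPM in other macrophages. Genes of red blood cells were at 1.22 and 3.21 CPM in members.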
